A study of Capra hircus with 2 samples.

Results

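The genes described here encode the synaptonemal complex, the protein ladder that holds paired chromosomes together in meiosis. They are the 7 genes SYCP1, SYCP2, SYCP3, SYCE1, SYCE2, SYCE3 and TEX12, chosen by symbol. Each symbol stood on 1 feature, so 7 of the 27271 features in the deposited files are members. Their goat Ensembl identifiers are ENSCHIG00000019909 (SYCP1), ENSCHIG00000013442 (SYCP2), ENSCHIG00000026071 (SYCP3), ENSCHIG00000000325 (SYCE1), ENSCHIG00000023183 (SYCE2), ENSCHIG00000021321 (SYCE3) and ENSCHIG00000011647 (TEX12). The data are single-cell transcriptomes of fetal goat (Capra hircus) ovary, with 1 droplet library from stage E125 and 1 from stage E85 (E for embryonic day), both labelled female and with no treatment given. The shared protocol text speaks of testes, whereas the tissue labels say ovary, and the labels were followed. How many animals went into a library is not given in the sources used here. Since each stage is a single library, differences could not be set against variation among animals, no test was made, and each difference describes these libraries. Intervals in brackets are exact 95% intervals for counting error alone, since cells of 1 library are not replicates.

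The synaptonemal complex is known mainly from mouse and other mammals. SYCP2 and SYCP3 form the lateral elements along each chromosome axis, SYCP1 forms the transverse filaments that bridge them, and SYCE1, SYCE2, SYCE3 and TEX12 build the central element between. In the fetal ovary, oocytes assemble the complex as they pass through meiotic prophase and take it apart as they arrest in diplotene, around the time that primordial follicles form.

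The E125 library held 8346 barcodes with 49692252 UMIs (unique molecular identifiers, each marking 1 captured molecule), and the E85 library 4397 barcodes with 17748948 UMIs. After filtering, 6980 and 3817 cells remained, with median depths of 3171 and 3107 UMIs. The libraries shared 13 barcode sequences, and no germ-cell-like droplet of one had the barcode of a germ-cell-like droplet of the other. Germ cells were taken as the cluster that carried the germ cell markers, and the 7 genes were used neither for clustering nor for naming. This gave 135 germ-cell-like droplets at E125 and 69 at E85. The markers held in both libraries. DDX4, a germ cell RNA helicase, had 112 CPM (UMIs of the gene per 1000000 UMIs of the same cells) in E125 germ-cell-like droplets and 2.61 CPM in the other cells, and 356 CPM and 6.59 CPM at E85. DAZL, a germ cell RNA-binding protein, had 101 CPM and 1.81 CPM at E125, and 226 CPM and 5.08 CPM at E85.

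The first comparison set the E125 germ cells against the E85 germ cells. The 7 genes together held a smaller share of germ cell RNA at E125, 191 CPM (183 to 200, from 1961 UMIs), against 382 CPM at E85 (353 to 413, from 651 UMIs), a ratio of 0.501 (0.458 to 0.548). Every one of the 7 had a lower CPM at E125, and 4 of 7 were at least 2-fold lower. Among all 9058 genes with 50 or more summed UMIs in these droplets, 52.4% were lower at E125. In all, 17.7% were at least 2-fold lower and 19.4% at least 2-fold higher. The median log2 ratio of E125 over E85 was -1.28 for the 7 genes and -0.07 for all measured genes. The median member was SYCP1, and without the E85 droplet that held most SYCP1 the medians were -0.71 and -0.06. With TMM or DESeq2 size factors the median of all genes moved up by 0.26 and 0.25. Then 4 of 7 members were at least 2-fold lower, against 11.6% and 11.8% of all measured genes. SYCP1, at 0.493 and 0.491, was among the 4. All 7 ratios were below 1, but that of SYCE3 was 0.981 and 0.976. The direction of the lateral element genes depended on how droplets were weighted. With each droplet weighted equally, the ratio was 1.13 for SYCP2 and 2.11 for SYCP3, while the other 5 genes stayed lower at E125. Equal weighting gives shallow droplets with few UMIs of these genes as much weight as deep ones. Droplets under 20000 UMIs held 9 UMIs of SYCP2 at each stage, and 6 UMIs of SYCP3 at E125 and 3 at E85.

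SYCP2, a lateral element gene, had 347 UMIs at 33.9 CPM (30.4 to 37.6) at E125, against 101 UMIs at 59.3 CPM (48.3 to 72.1) at E85, a ratio of 0.571 (0.456 to 0.720). SYCP3, the axial protein often used to stain meiotic chromosomes, had 298 UMIs at 29.1 CPM at E125 and 79 UMIs at 46.4 CPM at E85, a ratio of 0.627 (0.488 to 0.814). Both lay within 2-fold.

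The central element genes divided. TEX12, which pairs with SYCE2 to build long fibres, had 307 UMIs at 30.0 CPM (26.7 to 33.5) at E125, against 154 UMIs at 90.4 CPM (76.7 to 106) at E85, and was 3.02-fold lower (2.47 to 3.68). SYCE2 had 257 UMIs at 25.1 CPM at E125 and 121 UMIs at 71.1 CPM at E85, 2.83-fold lower (2.26 to 3.53). SYCE1 had 31 UMIs at 3.02 CPM at E125 and 24 UMIs at 14.1 CPM at E85, 4.66-fold lower (2.62 to 8.20). SYCE3, which binds SYCP1 and the central element, stood apart from these at 57.8 CPM (53.2 to 62.6) at E125 and 70.5 CPM (58.4 to 84.3) at E85, a ratio of 0.820 whose interval of 0.673 to 1.01 includes 1.

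The difference in the transverse filament gene rested on a single droplet. SYCP1 had 129 UMIs at 12.6 CPM at E125 and 52 UMIs at 30.5 CPM at E85, a ratio of 0.412 (0.297 to 0.580). One E85 droplet held 27 of those 52 UMIs (51.9%). Without it SYCP1 stood at 12.6 CPM at E125 and 14.9 CPM at E85, a ratio of 0.843 (0.546 to 1.35). The count of members at least 2-fold lower was then 3 of 7, against 17.4% of all 9050 measured genes. In contrast, that droplet held 7.92% of the E85 UMIs of SYCP2 and from 2.48% to 4.17% of those of the other 5 genes. The summed ratio without it was 0.533 (0.487 to 0.585).

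**Figure D1:**
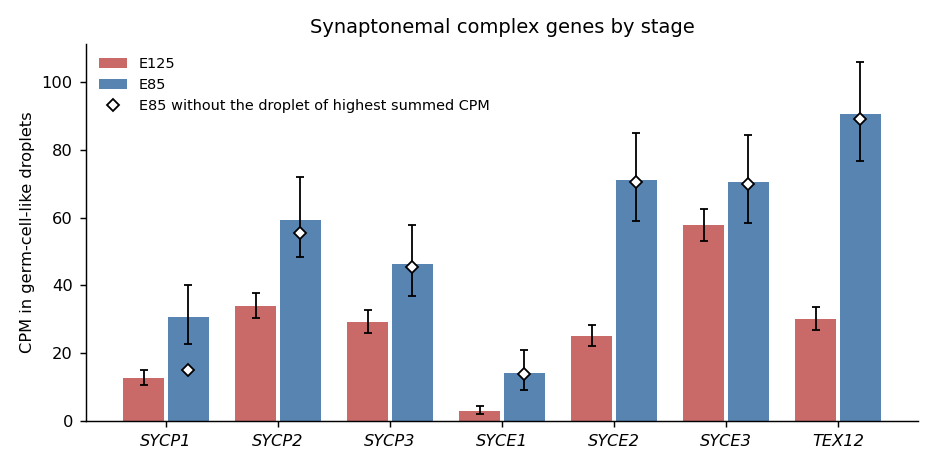
CPM of each synaptonemal complex gene in germ-cell-like droplets of the E125 library (left bar of each pair) and the E85 library (right bar), with exact 95% Poisson intervals. Diamonds give the E85 value without the droplet of highest summed CPM, which brings SYCP1 to 14.9 CPM and leaves TEX12 at 88.9 CPM.

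Molecules per droplet were also compared, since droplet size differed between the stages. The depth of single germ-cell-like droplets spanned 666 to 283741 UMIs at E125 and 743 to 214449 UMIs at E85, so droplets of 20000 or more UMIs were described separately, 75 at E125 and 22 at E85. These large droplets had a median of 128983 UMIs at E125 and 56361 UMIs at E85. The 7 genes summed to between 0 and 73 UMIs per large droplet at E125, with a median of 25, and to between 6 and 76 UMIs at E85, with a median of 21.5. The counts per droplet thus overlapped almost wholly, with a ratio of medians of 1.16. The order of the counts depended on the measure. Their means were 25.7 ± 14.9 at E125 and 27.6 ± 19.6 at E85 (SD over 75 and 22 droplets), and in droplets of 40000 or more UMIs (68 and 12) the medians were 27.5 and 30. No order of molecules per droplet is therefore read. On the scale of CPM per droplet the range was 0 to 508 with a median of 186 at E125, and 174 to 1802 with a median of 371 at E85, a ratio of medians of 0.502.

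Gene by gene, counts in the large droplets also overlapped. SYCP1 had a median of 1 UMI in both, from 0 to 10 at E125 and from 0 to 27 at E85, and was seen in 66.7% (54.8 to 77.1) and 59.1% (36.4 to 79.3) of droplets. SYCP2 ran from 0 to 13 UMIs per droplet with a median of 4 at E125, and from 0 to 17 with a median of 3 at E85. SYCP3 ran from 0 to 16 UMIs at E125 and from 0 to 10 at E85, with a median of 3 in both. SYCE2 also had a median of 3 UMIs in both, from 0 to 15 at E125 and from 0 to 25 at E85. The ranges of these 3 genes overlapped almost wholly. TEX12 had medians of 4 at E125 (0 to 17) and 4.5 at E85 (0 to 27). SYCE3 differed more, with a median of 7 UMIs at E125 (0 to 25) and 4 at E85 (0 to 19). SYCE1 was sparse, at 0 to 2 UMIs per droplet at E125 and 0 to 4 at E85, and was seen in 25 of 75 droplets (interval 22.9% to 45.2%) and 11 of 22 (28.2% to 71.8%). A median of 6 of the 7 genes was detected per large droplet at both stages.

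**Figure D2:**
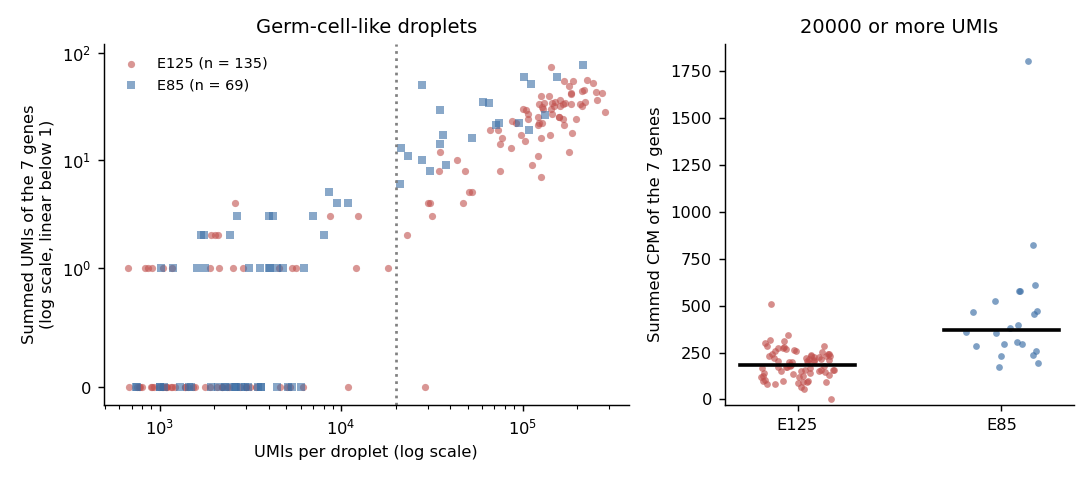
Left, summed UMIs of the 7 genes against total UMIs for each germ-cell-like droplet, both on log scales, with E125 as circles and E85 as squares, and the limit of 20000 UMIs as a dotted line. Right, summed CPM of the 7 genes in each large droplet with the median as a bar, 186 at E125 and 371 at E85. Counts rise with droplet size at both stages, and at a given size the E85 droplets tend to lie higher.

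At equal depth detection was lower at E125 for all members but SYCP1, with intervals apart for TEX12 only. Each large droplet was thinned to 20000 UMIs. TEX12 was then found in 28 of 75 E125 droplets (37.3%, 26.4 to 49.3) and 18 of 22 E85 droplets (81.8%, 59.7 to 94.8). SYCE3 was found in 57.3% (45.4 to 68.7) and 81.8% (59.7 to 94.8), with overlapping intervals. SYCP1 was found in 28% (18.2 to 39.6) of E125 droplets and 22.7% (7.82 to 45.4) of E85 droplets, a difference not detectable at this number of droplets. For SYCP2, SYCP3, SYCE1 and SYCE2 the share was also lower at E125, with overlapping intervals. The mean of the summed UMIs per 20000 was 3.80 at E125 and 9.18 at E85.

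The mitochondrial share and the levels of several marker lists of other cell types differed between the stages in the same large droplets. The mitochondrial share of UMIs had a median of 2.19% at E125 and 5.43% at E85. Pregranulosa markers (10 genes) were detected for 10 of 10 at E125 and 9 of 10 at E85, where AMH was at 0. Their summed level ran from 90.5 to 813 CPM with a median of 320 at E125, and from 0 to 623 CPM with a median of 111 at E85, against 3288 CPM and 1141 CPM in pregranulosa-like cells. Surface epithelium markers (5 of 5 with a feature detected in both) differed more, from 45.9 to 3204 CPM with a median of 497 at E125 and from 0 to 647 CPM with a median of 72.6 at E85, against 2904 CPM and 955 CPM in surface-epithelium-like cells. Stromal markers (8 of 8 detected in both) ran from 46.0 to 569 CPM at E125, with a median of 155. At E85 they ran from 0 to 312 CPM with a median of 64.4. Stromal-like cells themselves had 8325 CPM and 9620 CPM. The medians of perivascular markers (6 of 7 detected at E125 and 5 of 7 at E85) were 82.4 CPM and 0. Perivascular-like cells had 9705 CPM and 9459 CPM. The medians of steroidogenic markers (3 of 4 in both) were 98.3 CPM and 3.24 CPM. Endothelial and myeloid markers had medians of 8.85 CPM and 10.8 CPM at E125, and both had 0 at E85. Lymphoid, glia and erythroid markers had a median of 0 at both stages. Whether the marker UMIs came from other cells or from the germ cells was not tested, nor was the part of these measures in the stage difference.

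The large E85 germ-cell-like droplets were not uniform. The division of these 22 droplets used here was noticed in the data and is given as a description. The droplet that carried most SYCP1 had 27748 UMIs and a summed level of 1802 CPM (1337 to 2376), with 27 UMIs of SYCP1, 8 of SYCP2, 3 each of SYCP3, SYCE2 and SYCE3, 5 of TEX12 and 1 of SYCE1. It had no UMI of FIGLA, an oocyte transcription factor, or of ZP3, a zona pellucida protein. It had 16 UMIs of STRA8, the retinoic acid responsive gene of meiotic entry, out of 21 in all E85 germ-cell-like droplets. HORMAD1, an axis protein of unsynapsed chromosomes, had 7 UMIs there and DMC1, the meiotic strand exchange enzyme, 5. Its mitochondrial share was 12.6%.

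Another 7 large E85 droplets had 0 UMIs of REC8, the meiotic cohesin, while the remaining 14 had from 6 to 445. The droplet that carried most SYCP1 had 20 UMIs of REC8 and was kept apart from both groups. The droplets without REC8 carried TEX12 almost without SYCE2. TEX12 had 73 UMIs there (3 to 27 per droplet) at 264 CPM (207 to 331), against 71 UMIs at 57.4 CPM (44.9 to 72.5) in the 14 droplets with REC8, a ratio of 4.59 (3.26 to 6.45). SYCE2 had 2 UMIs at 7.22 CPM (0.874 to 26.1) in the droplets without REC8, at most 1 per droplet, against 102 UMIs at 82.5 CPM (67.3 to 100.2) in those with REC8, where each droplet had at least 1. The highest single-droplet counts of these central element partners, 27 UMIs of TEX12 and 25 of SYCE2, thus lay on different sides of this division. However, the droplet with 25 SYCE2 UMIs was the largest at E85, with 214449 UMIs, and also held 17 UMIs of TEX12.

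The other members followed TEX12 more weakly or not at all. SYCP3 had 86.6 CPM in the droplets without REC8 and 39.6 CPM in those with REC8, a ratio of 2.19 (1.28 to 3.63). Ratios of 1.30 (0.739 to 2.20) for SYCP2, 1.25 (0.757 to 1.98) for SYCE3, 1.78 (0.567 to 4.87) for SYCE1 and 1.39 (0.399 to 3.98) for SYCP1 had intervals that include 1. The summed level was 552 CPM without REC8 and 327 CPM with REC8, a ratio of 1.69 (1.39 to 2.04). Per droplet it ran from 397 to 823 CPM without REC8 and from 174 to 577 CPM with REC8, so the ranges overlapped.

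The droplets without REC8 differed in other genes as well. ZP3 had 1000.0 CPM without REC8 and 11136 CPM with REC8, and ZP4 had 0 UMIs and 2222 UMIs. SPO11, the enzyme that makes the DNA breaks of meiosis, had 11 UMIs without REC8 and 1 UMI with REC8. RBM46, an RNA-binding protein needed in germ cells in mouse, had 473 CPM and 86.6 CPM. The droplets without REC8 were also smaller, 21388 to 65092 UMIs against 21059 to 214449, and their mitochondrial share was higher, with a median of 10.9% (5.41 to 17.4) against 4.10% (0.319 to 8.39). The part of size and RNA quality in these differences was not tested.

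No large E125 droplet lacked REC8 (0 of 75). The E85 side was then limited to the 14 large droplets with REC8, without the droplet that carried most SYCP1. The summed ratio of E125 over E85 was 0.586 (0.526 to 0.654), and SYCE1 and SYCE2 were 4.07-fold and 3.26-fold lower at E125. SYCE1 then had 15 UMIs at E85, and its summed count of 45 lay under the minimum of 50. So 1 member counted as at least 2-fold lower, and no share of all genes is given for these droplets. TEX12 was 1.91-fold lower, with 30.1 CPM at E125 and 57.4 CPM at E85. SYCP1 had 12.3 CPM and 12.9 CPM, and SYCE3 58.4 CPM and 69.6 CPM. Over all large germ-cell-like droplets, the droplet that carried most SYCP1 included, TEX12 was 3.21-fold lower at E125. The difference between these folds of TEX12, 1.91 and 3.21, was not tested.

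**Figure D3:**
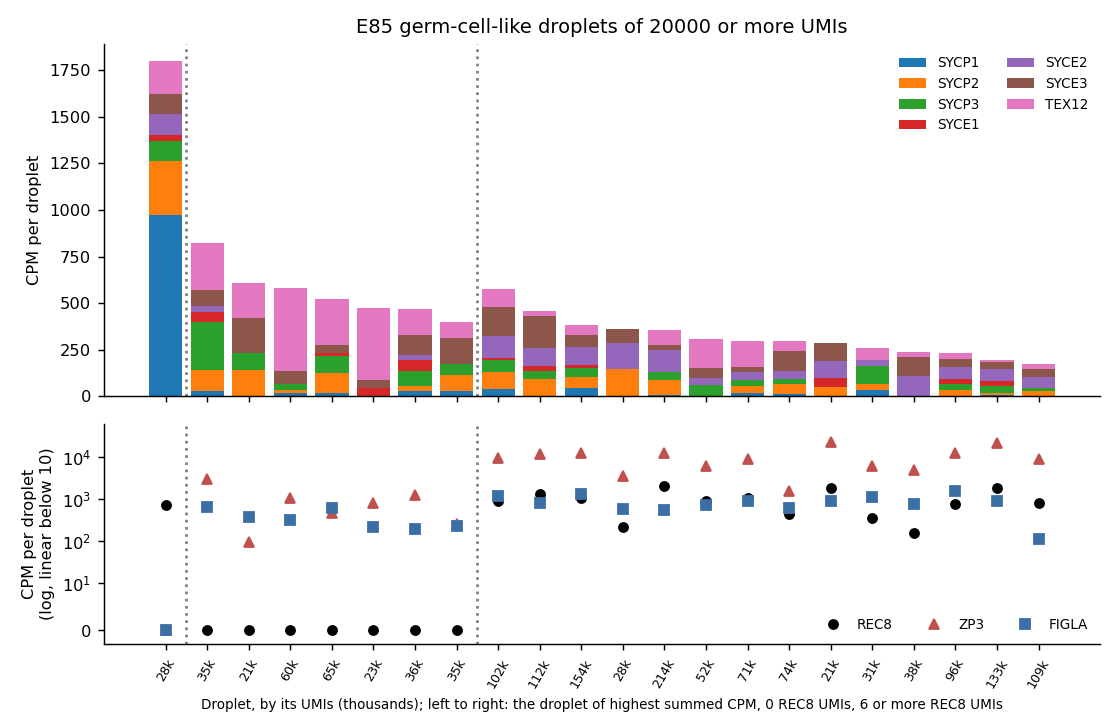
The 22 large E85 germ-cell-like droplets, each 1 bar. The upper panel stacks the CPM of the 7 genes, and the lower panel gives CPM of REC8, ZP3 and FIGLA on a log scale (linear below 10). Dotted lines separate the droplet of highest summed CPM, the 7 droplets with no REC8 UMI and the 14 others, all with REC8. TEX12 fills much of the bar in the 7, and SYCE2 appears in the 14.

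Across large droplets the summed CPM was set beside other genes. The Spearman correlation with the CPM of ZP3 was 0.02 over the 75 E125 droplets and -0.63 over the 22 E85 droplets. With SMC1B, a meiotic cohesin, it was 0.52 at E125 and 0.39 at E85. With LHX8, an oocyte transcription factor, it was 0.58 at E125 and -0.18 at E85. With the mitochondrial share it was -0.09 at E125 and 0.61 at E85. Without the E85 droplet of highest summed CPM the E85 values were -0.58 for ZP3, 0.30 for SMC1B, -0.06 for LHX8 and 0.56 for the mitochondrial share. The difference between the stages in these values was not tested. Droplets of a library share their preparation and depth, and these values describe those droplets.

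Genes with the most similar pattern over large droplets were ranked by the lower of their within-library Spearman correlations, among 1787 genes of at least 50 CPM. The 8 highest were SLC4A1AP, CCNK, CENPJ, SNW1, ITSN2, GKAP1, NASP and CCT2. Their correlations ran from 0.49 to 0.59 at E125 (75 droplets) and from 0.52 to 0.69 at E85 (22 droplets). CENPJ, a centriole protein, had correlations of 0.52 and 0.67, and NASP, a histone chaperone, 0.49 and 0.69. Between the stages, 6 of the 8 were lower at E125, with ratios of E125 over E85 from 0.529 (CENPJ) to 0.821 (SNW1). Of the 8967 genes measured in large droplets, 53.0% were lower at E125. The exceptions were ITSN2, with a ratio of 1.51, and GKAP1, with 879 CPM at E125 and 191 CPM at E85.

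Small germ-cell-like droplets carried few molecules of the genes. The 60 droplets under 20000 UMIs at E125 had 31 UMIs of the 7 genes in all (176 CPM), and the 47 at E85 had 44 UMIs (271 CPM). At least 1 UMI was seen in 21 of 60 (35.0%, 23.1 to 48.4) and 22 of 47 (46.8%, 32.1 to 61.9), a difference not detectable at this depth.

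The second comparison set germ cells against the rest of the ovary. All members but SYCP1 were far higher in germ-cell-like droplets in both libraries. Summed over the 6 genes without SYCP1, germ-cell-like droplets had 179 CPM and all other kept cells 3.04 CPM at E125, a ratio of 58.8 (48.3 to 72.2). At E85 they had 352 CPM and 9.81 CPM, a ratio of 35.8 (29.8 to 43.3). Among all genes with 50 or more UMIs, 28.3% at E125 and 27.4% at E85 were at least 2-fold higher in germ-cell-like droplets. Germ-cell-like droplets held from 89.5% to 100% of the UMIs of each of the 6 genes at E125, and from 68.4% (SYCE2) to 87.1% (SYCP2) at E85.

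Single genes ranged widely in this ratio. SYCE3 was 87.5-fold (57.8 to 139) higher in germ-cell-like droplets than in other cells at E125 and 44.6-fold (28.4 to 73.1) at E85. TEX12 was 87.0-fold (49.1 to 170) higher at E125 and 50.7-fold (33.3 to 80.1) at E85. SYCE2 had the lowest ratios of the 6, 29.1-fold (19.9 to 44.1) at E125 and 18.5-fold (13.4 to 25.9) at E85. SYCE1 had 31 UMIs in germ-cell-like droplets and 0 elsewhere at E125, and 24 UMIs and 9 UMIs at E85. With a floor of 3 UMIs over the other cells together its E125 ratio was 35.1. The exact lower limit of the ratio without that floor was 26.9.

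SYCP1 did not follow the other members. At E125 it had 12.6 CPM in germ-cell-like droplets and 19.1 CPM in all other kept cells, a ratio of 0.659 (0.541 to 0.796), and 16.2% of its UMIs lay in germ-cell-like droplets. At E85 it had 30.5 CPM and 11.8 CPM, a ratio of 2.59 (1.86 to 3.55), with 23.2% of its UMIs in germ-cell-like droplets. Without the droplet that held 27 UMIs, the E85 germ cell level was 14.9 CPM.

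The somatic SYCP1 counts were uneven across clusters. Among clusters of 15 or more cells at E125 the highest level was 71.9 CPM (104 UMIs) in unnamed cluster 18, led by KRT7, RDH10, NR1H4 and TAC1. The next were 51.6 CPM (138 UMIs) in unnamed cluster 17, led by ERICH3, CPXM2 and NMB, and 28.5 CPM (198 UMIs) in the main pregranulosa-like cluster 7. The intervals of clusters 18 (58.7 to 87.1) and 17 (43.3 to 60.9) overlap, and that of cluster 7 (24.6 to 32.7) lies below both. Endothelial-like cluster 3 had 12.1 CPM and perivascular-like cells 15.6 CPM. Stromal-like clusters of 15 or more cells ran from 4.62 CPM in the largest to 18.2 CPM (13.4 to 24.3) in cluster 4. Lymphoid-like and glia-like cells at E125 had 0 UMIs, with upper limits of 9.48 CPM and 18.3 CPM. At E85 the highest levels among clusters of 15 or more cells were 30.2 CPM (12 UMIs) in unnamed cluster 14, led by the replication genes TCF19 and MCM5, and 24.6 CPM (56 UMIs) in surface-epithelium-like cells, against 12.3 CPM in the pregranulosa-like cluster. The intervals of the first pair (15.6 to 52.8 and 18.6 to 32.0) overlap each other and that of germ-cell-like droplets (22.8 to 40.0). In these somatic clusters the other 6 genes were low, 1.38, 2.99 and 2.16 CPM in clusters 18, 17 and 7 at E125, and 2.52 and 8.36 CPM in clusters 14 and 10 at E85.

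**Figure D4:**
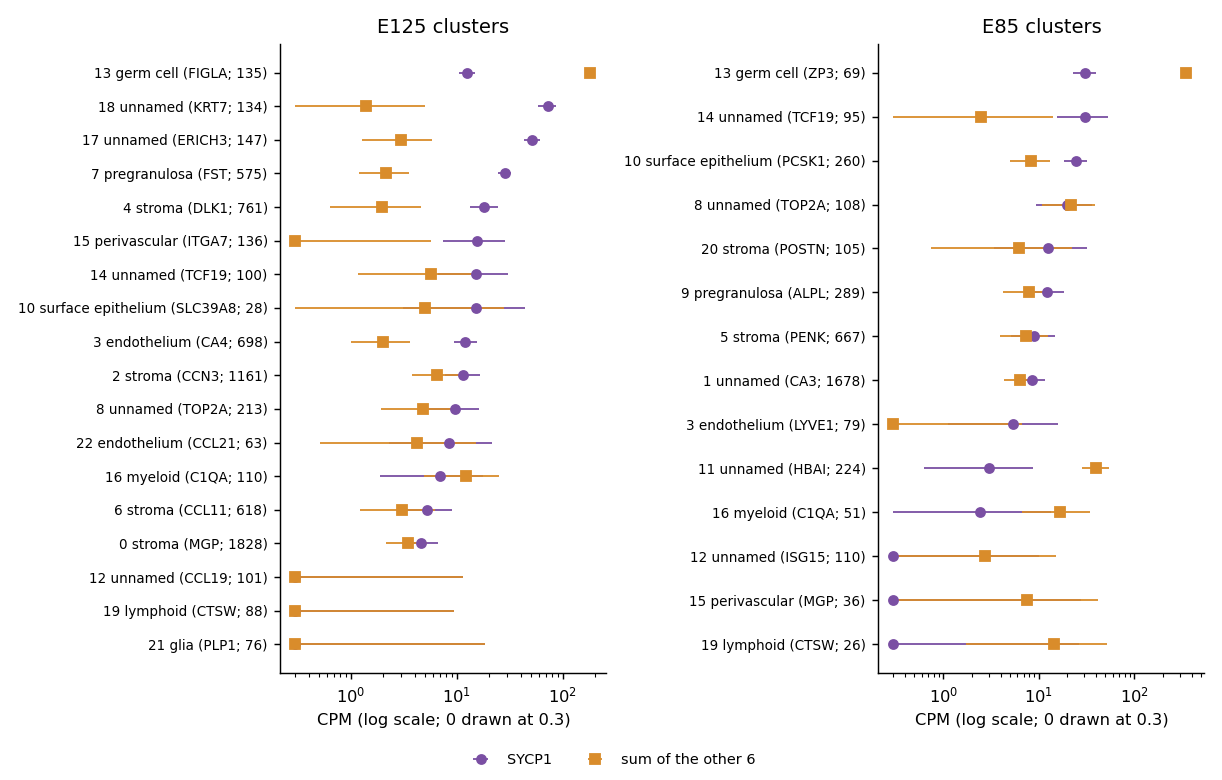
CPM of SYCP1 (circles) and of the other 6 genes summed (squares) in each cluster of 15 or more cells, with exact 95% Poisson intervals, on a log scale with 0 drawn at 0.3 (the square covers the circle where both are 0). Labels give cluster number, class, first leading gene and number of cells, with germ cells on top. SYCP1 reaches 71.9 CPM in a somatic cluster at E125, whereas the other 6 genes reach 179 CPM at E125 and 352 CPM at E85 in germ cells.

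Shares of cells with a UMI were compared after thinning to 2000 UMIs. Of 103 E125 germ-cell-like droplets deep enough (32 shallower), 26.2% (18 to 35.8) had a UMI of any of the 7 genes, against 42.6% (29.2 to 56.8) of 54 E85 droplets (15 shallower). The intervals overlap. Unthinned, the shares were 70.4% and 63.8%, at median depths of 43526 and 4192 UMIs, in the opposite order. Stromal-like cells, which should lack these genes, had 1.97% (1.53 to 2.51) at E125 and 3.21% (1.92 to 5.03) at E85. Without SYCP1 the stromal-like shares were 0.668% and 1.43%, and those of germ-cell-like droplets 24.3% (16.4 to 33.7) and 38.9% (25.9 to 53.1). Pregranulosa-like cells had 6.50% with SYCP1 and 0.382% without it at E125, and 5.42% and 2.89% at E85.

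Outside the germ cells and among clusters of 15 or more cells, the highest level of the other 6 genes at E125 was 12.2 CPM (4.91 to 25.2) on 7 UMIs in myeloid-like cells. At E85 unnamed cluster 11 (224 droplets, led by HBAI, CCL19 and MIF) had 40 UMIs at 40.3 CPM (28.8 to 54.8), spread over 37 droplets with at most 2 in any droplet. Unnamed cluster 8, led by mitosis genes, followed with 21.8 CPM (10.9 to 38.9), an interval that overlaps it, then myeloid-like cells with 16.8 CPM and lymphoid-like cells with 14.5 CPM on 2 UMIs. Within cluster 11, SYCE3 had 14 of these UMIs, SYCE2 11, TEX12 6, SYCP2 and SYCE1 4 each and SYCP3 1. The droplets of cluster 11 had 1136 CPM of ZP3, found in 212 of 224, and 77.5 CPM of FIGLA, against 8926 CPM and 723 CPM in E85 germ-cell-like droplets. Whether these are molecules from free RNA or from the droplets' own cells was not tested.

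The rest of the meiotic programme was set beside the synaptonemal complex through 5 lists of genes, against 17.7% of all measured genes at least 2-fold lower. Of 9 measured axis and cohesin genes 3 were at least 2-fold lower at E125 and 0 higher, with a median log2 ratio of -0.47. SMC1B had 252 CPM at E125 and 349 CPM at E85, REC8 had 780 CPM and 924 CPM, and the general cohesin RAD21 had 133 CPM and 109 CPM. Of 15 measured recombination genes 4 were lower and 1 higher, with a median of -0.41. HSF2BP, a partner of BRCA2 in mouse meiosis, had 203 CPM and 216 CPM, and REC114, which helps form DNA breaks, 236 CPM and 225 CPM.

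Genes that tie telomeres to the nuclear envelope and genes of meiotic entry were mostly lower at E125. Of 4 measured telomere attachment genes 3 were lower, with a median of -1.23. TERB1 had 27.2 CPM at E125 and 60.5 CPM at E85, TERB2 11.9 CPM and 29.4 CPM, and SUN1 6.64 CPM and 7.05 CPM. All 5 measured meiotic entry genes were lower, with a median of -1.40. Without the E85 droplet of highest summed CPM the medians were -1.15 for telomere attachment and -1.40 for meiotic entry. RBM46 had 55.0 CPM at E125 and 160 CPM at E85, DAZL 101 CPM and 226 CPM, and DMRT1 42.3 CPM and 89.8 CPM. In large E85 droplets other than that droplet, RBM46 had 473 CPM without REC8 and 86.6 CPM with it, and DAZL 325 CPM and 208 CPM. Large E125 droplets, none of which lacked REC8, had 55.0 CPM of RBM46 and 101 CPM of DAZL. DMRT1 was not split in this way. Of 11 measured oocyte growth genes 3 were higher and 1 lower, with a median of 0.19. FIGLA had 3614 CPM at E125 and 723 CPM at E85, while ZP3 had 9491 CPM and 8926 CPM and ZP4 1634 CPM and 1433 CPM.

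Relatives of the lateral elements, picked after their values were seen, behaved as follows. SYCP2L, a paralog of SYCP2 found in oocytes, had 18.3 CPM at E125 and 35.2 CPM at E85, a ratio of 0.521, close to the 0.571 of SYCP2. HORMAD1 had 2 UMIs at E125 and 15 at E85, too few to be counted as measured, and 7 of the 15 lay in the droplet that carried most SYCP1.

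**Figure D5:**
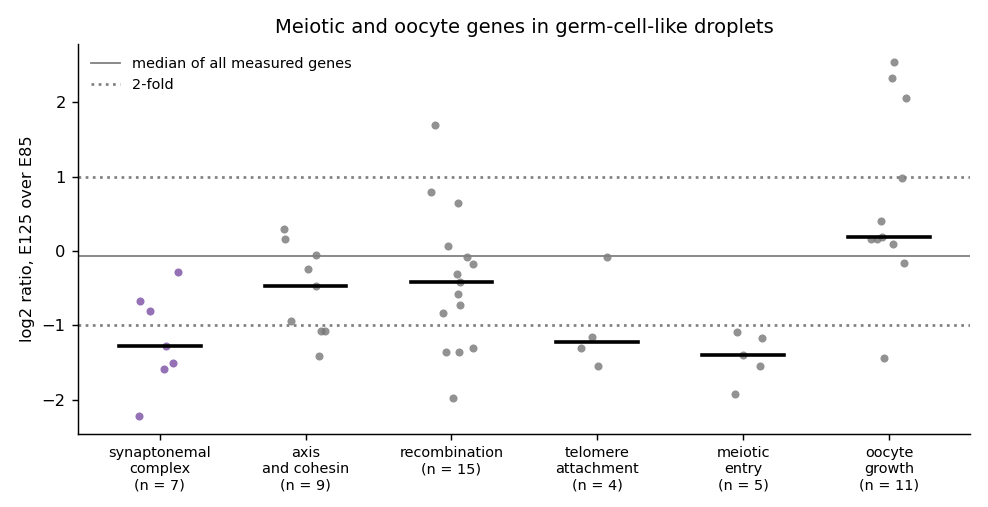
Log2 ratio of E125 over E85 in germ-cell-like droplets for each measured gene of 6 lists, with list medians as bars, the median of all measured genes (-0.07) as a grey line and 2-fold as dotted lines. Medians are -1.28 for the synaptonemal complex (-0.71 without 1 E85 droplet), -1.23 for telomere attachment, -1.40 for meiotic entry, -0.41 for recombination and -0.47 for axis and cohesin genes. Single genes of these lists overlap, differences between lists were not tested, and FIGLA is among the oocyte growth genes above 2-fold.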

How the data were processed

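The deposited values are raw UMI counts, not normalized, for barcodes the authors had called as cells. Cell Ranger 6.0.0 is named per the file headers and Cell Ranger 3.1 per the submitters' processing notes. Since the sources used here do not name a genome build, no coordinates are printed. Kept barcodes had at least 500 genes and at most 20% mitochondrial UMIs; others were left out (809 at E125 and 425 at E85), and then those with the highest Scrublet scores (557 and 155), since its own threshold called 0 and 2. Counts were scaled to 10000 and logged, and 2000 variable genes, 30 principal components, 15 neighbours and Leiden resolution 1 gave clusters over both libraries together (scanpy 1.11.5, leidenalg 0.10.2). Marker CPM in each cluster of 15 or more cells was divided by its highest value over clusters, and the class with the highest mean was given where that mean reached 0.3 and 3 markers reached 0.25. Smaller parts followed the other library. Clusters led by cell cycle genes stayed unnamed, a choice made after seeing them. In all 695 cells at E125 and 2218 at E85 stayed unnamed, 1678 of them in 1 E85 cluster with a mean of 0.276 for stromal markers, so stromal-like values at E85 come from 777 cells.

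Counts were summed per class and library. Counts carry exact Poisson intervals, ratios exact conditional intervals and shares Clopper-Pearson intervals. A gene was measured at 50 summed UMIs and called at 2-fold, with counts under 3 raised to 3. In simulated counts the ratios and intervals recovered the folds they were made with, but genes lower at E125 were called less often than genes higher at E125, because they fell under the minimum. The share of genes called lower therefore misses some such genes. Counting noise can also add calls among unchanged genes, so no net direction of its error is stated. The 7 genes, the lists and the limit of 20000 UMIs were chosen with earlier results of these data known. The genes named from each list are the 3 with the most UMIs, and similar genes are the 8 with the highest value of the lower Spearman correlation. A gene that the first rule would name is not reported here. Genes of the REC8 division, SYCP2L and HORMAD1 were chosen after their values were seen. The sequences of the genes are not used here. TMM came from edgeR 4.0.16 and size factors from DESeq2 1.42.0.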

Additional observations from a re-analysis of the deposited data

Results flagged for a closer look

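SYCP1 moved in opposite directions between the stages in 2 classes, on 1 library each. Its ratio of E125 over E85 was 0.412 in germ-cell-like droplets, with 12.6 CPM and 30.5 CPM, and 2.24 (1.45 to 3.61) in pregranulosa-like cells, with 28.5 CPM and 12.7 CPM. The difference between the classes was not tested. Without the E85 droplet that held 27 SYCP1 UMIs the germ cell ratio was 0.843, and different clusters made up the pregranulosa-like class at the 2 stages, cluster 7 at E125 and cluster 9 at E85.

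Barcodes left out of the comparisons also carried the other 6 genes, 69 UMIs over 1366 barcodes at E125 and 63 UMIs over 580 barcodes at E85. These were 15.0 CPM and 42.8 CPM of their counts. Among them 35 barcodes at E125 and 38 at E85 had UMIs of 4 or more germ cell markers, and 5 of these at E125 and 0 at E85 had 20000 or more UMIs.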

How the results depend on the processing

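The summed ratio of 0.501 was below 1 under each of 17 alternatives, but its size was loose. It was 0.577 with the stricter cell filter (1000 genes and 10% mitochondrial UMIs). In droplets under 20000 UMIs it was 0.649, and without the 10 largest droplets of each library 0.431. As a mean over droplets it was 0.647, and in thinned droplets 0.571 (37 and 34 UMIs). With TMM factors it was 0.599, and using size factors of DESeq2 0.596. Among large droplets with REC8, without the E85 droplet of highest summed CPM, it was 0.586, an alternative chosen after seeing the data. The cause was not tested. With the 2 scalings, genes called higher made up 68.3% and 67.9% of calls, against 52.3% in the class total. The count of members at least 2-fold lower, 4, was 2 with the stricter filter. It was 1 among large droplets with REC8, without the E85 droplet of highest summed CPM. No share of all genes is given for these settings. SYCP1 turned to a ratio of 1.15 in droplets under 20000 UMIs, on 5 and 4 UMIs. The median log2 ratio of the 7 genes, -1.28, was -0.71 without the E85 droplet of highest summed CPM, which was chosen after seeing the data. SYCP3 had a ratio of 1.84 in droplets under 20000 UMIs, on 6 and 3 UMIs, and 0.641 without that E85 droplet. As a mean over droplets SYCP2 and SYCP3 had 1.13 and 2.11. TEX12, SYCE1, SYCE2 and SYCE3 stayed below 1 under each of 16 alternatives, though SYCE3 reached 0.981.

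The ratio of germ-cell-like droplets over other cells, 8.64 at E125 and 17.7 at E85 for the 7 genes, was 58.8 and 35.8 without SYCP1, and at E125 7.35 when droplets were chosen by 4 germ cell markers. The share of droplets with a UMI at E125 was 60% at 5000 UMIs. At E85 it was 22.4% at 1000 UMIs, 87.1% at 5000 UMIs and 24.8% by the marker choice, which took 120 droplets where the clusters gave 69. Resolution, separate clustering, doublets and the members' place among variable genes moved none of these results past its interval or spread over droplets. The count of members could not be given for small or thinned droplets, where fewer than 4 members reached 50 UMIs. No paired analysis was possible because each stage is 1 library, and no replicate could be left out.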
